A study of Mus musculus and Homo sapiens with 22 samples.

Results

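PROX1 peaks were examined at 9 genes that mark biliary epithelial cells (cholangiocytes), namely Sox9, Onecut2, Sox4, Elf3, Spp1, Krt19, Krt7, Epcam and Cftr. A peak was assigned to one of these genes when its summit lay in the annotated gene or within 50 kb on either side. By this rule, 40 of 50159 peaks in mouse liver, 30 of 40531 peaks in mouse embryonic fibroblasts (MEFs) and 26 of 14369 peaks in human Hep3B cells were assigned to the 9 genes, out of 21853 mouse and 19689 human protein-coding genes. Within each list, a peak was ranked by the −log10 p that the peak caller gave its summit. The rank is stated as a percentile, where 100 is the strongest peak of the list.

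Hepatocytes and cholangiocytes arise from a shared precursor, the hepatoblast, and cholangiocytes line the ducts that carry bile out of the liver. SOX9, SOX4 and ONECUT2 are transcription factors of the developing bile duct, where Notch signalling directs precursors toward the biliary fate, and ELF3 is an epithelial factor of the ETS family. PROX1 is a homeodomain transcription factor expressed in hepatocytes from early in liver development. The study describes it as a repressor in hepatocytes and as an activator in some other lineages. In injured liver, hepatocytes can switch on Sox9, Spp1 and other biliary genes. The comparison therefore asks where PROX1 sits at these genes in liver and in cells made to express it.

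PROX1 was located by CUT&RUN, in which an antibody directs a nuclease to the chromatin that a protein occupies and the released DNA is sequenced. Endogenous PROX1 was profiled with a rabbit anti-Prox1 antibody in livers of wild-type C57BL/6J mice of 2 to 3 months (5 samples), and rabbit IgG served as the control (5 samples). Primary MEFs from C57BL/6N embryos at embryonic day 13.5 carried lentiviral rtTA and tetO-FLAG-mmProx1, received doxycycline at 2 µg/ml for 2 days, and were profiled with a FLAG antibody or IgG (3 samples each). Hep3B, a human hepatocellular carcinoma line, carried a doxycycline-inducible human PROX1 after puromycin selection and was treated in the same way (3 FLAG and 3 IgG samples). The IgG samples of each culture also overexpressed PROX1. The labels call the liver material hepatocyte, but the preparation took nuclei from whole tissue without a sort, so the liver cell type behind a peak cannot be told apart. These data hold no RNA, and the labelled cell types were not checked against marker expression.

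Every list was called over the replicates of 1 antibody group together. Depth and replicate spread are therefore unknown for every value below, and no test between groups was possible. Liver differs from the cultures in tissue, in antibody and in using the endogenous factor, and the effects of these on a difference from liver cannot be told apart. The lists also differ in stringency. Peaks were kept from an area under the significance curve of 500 in liver and of 200 in the cultures, and 14.5%, 32.0% and 58.2% of the liver, MEF and Hep3B peaks had their summit within 1 kb of a protein-coding transcription start site (TSS). The peak-calling command names no control library, although the binding sites are described relative to IgG. Whether IgG entered the −log10 p values is therefore unknown, and a percentile ranks a peak by its signal over either the genomic background or IgG. The −log10 p values are comparable only within a list.

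The DNA under the summits that carried the comparison is shown first. The 150 bases centred on a summit are given on the strand of the gene, 5′ to 3′, with matches to a set of 18 short factor words in capitals, from the reference genomes (mm10 and hg38). The first pair is the strongest peak at Sox4 in MEFs (chr13:28953845-28953994, minus strand) and in Hep3B (chr6:21593446-21593595, plus strand), shown because the 2 species had their summits at almost the same distance from the gene. The capitals mark GGAATG, the word of TEAD factors, followed directly by AGGTCA, the core word of nuclear receptors, at positions 128 and 134 in both windows.
Sox4 MEF: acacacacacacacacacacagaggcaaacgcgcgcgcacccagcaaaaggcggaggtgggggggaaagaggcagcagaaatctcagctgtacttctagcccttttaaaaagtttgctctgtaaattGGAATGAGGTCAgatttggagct
SOX4 Hep3B: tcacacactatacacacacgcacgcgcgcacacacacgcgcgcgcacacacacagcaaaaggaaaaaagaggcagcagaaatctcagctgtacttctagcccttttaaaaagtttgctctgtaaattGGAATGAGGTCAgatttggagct
The next window is the promoter peak of Sox9 in MEFs (chr11:112782006-112782155, plus strand), shown beside the liver peak of the same gene. Here CCAATC is a word of NF-Y, and TGACTCA is the word of AP-1. The window is that of the promoter peak and not of the strongest MEF peak, and was chosen after its values were seen.
Sox9 MEF: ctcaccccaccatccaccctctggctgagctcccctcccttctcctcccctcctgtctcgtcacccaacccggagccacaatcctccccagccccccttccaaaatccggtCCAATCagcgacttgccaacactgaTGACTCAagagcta
The last set holds the strongest liver peaks of Sox9 (chr11:112780913-112781062, plus strand) and of Spp1 (chr5:104399583-104399732, plus strand). GTAAACA in the Sox9 window is the word of FOXA factors on the reverse strand, and the Spp1 window matched none of the words.
Sox9 liver: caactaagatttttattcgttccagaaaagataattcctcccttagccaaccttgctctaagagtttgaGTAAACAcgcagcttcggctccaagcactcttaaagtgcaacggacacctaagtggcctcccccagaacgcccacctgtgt
Spp1 liver: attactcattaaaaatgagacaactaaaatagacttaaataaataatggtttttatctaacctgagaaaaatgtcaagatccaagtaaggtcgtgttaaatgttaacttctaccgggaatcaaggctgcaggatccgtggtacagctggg

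In liver, endogenous PROX1 peaks lay near the 4 transcription factor genes and Spp1 among the 9, and Krt19, Krt7, Epcam and Cftr had no liver peak within 50 kb, like 30.9% of all protein-coding genes. The factor genes together held 34 of the 40 liver peaks (85.0%), and Spp1 held the other 6. This grouping by role, with Spp1 in a role of its own, was not among the planned comparisons. The factor peaks were uneven, with 17 at Onecut2, 10 at Sox9, 6 at Elf3, of which 5 were nearest to another gene, and 1 weak peak at Sox4. The split by role is that of these 9 genes alone, since other keratin and adhesion genes of biliary epithelium, named after their values were seen, had liver peaks (8 at Krt8, 10 at Krt18, 8 at Krt23 and 26 at Cdh1). Of these, 2, 5, 6 and 18 were nearest to the gene's own TSS. The ranges of the neighbours Krt8 and Krt18 overlap, so some peaks were counted for both. In MEFs, the 4 factor genes held 17 of 30 peaks (56.7%) and the 4 surface and structural genes held 10, with a peak at each of them. In Hep3B, the factor genes held 15 of 26 peaks (57.7%) and the surface and structural genes held 11, again with a peak at each. Some of these peaks were below the area floor of the liver list, although areas are not normalized between lists. With the liver floor of 500, Krt19 and Cftr had 0 MEF peaks, KRT19 and KRT7 had 0 Hep3B peaks, and the other surface and structural genes kept 1 or 2. Krt7 also had 0 MEF peaks with 25 kb on each side, or when only peaks nearest to its own TSS were counted. With the 14369 top peaks of each list, MEFs kept 2 peaks at Krt7, 2 at Epcam, 1 at Cftr and 0 at Krt19. Hep3B then had 3 at KRT19, 3 at KRT7, 4 at EPCAM and 1 at CFTR, and liver stayed at 0 for all 4 genes.

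In all, 5 of the 9 genes had a liver peak in the gene or within 50 kb, where 69.1% of all protein-coding genes did. All 9 had a MEF peak, where 81.2% of genes did, and 8 of 9 had a Hep3B peak, where 71.8% of genes did. With 9 genes, each of these counts lies within a few genes of the background share, and none is a result about the set. The range over the genes was wider in liver, from 0 to 17 peaks, than in MEFs (1 to 5) or in the Hep3B list (0 to 6). The median over all genes of each list was 3, 4 and 1 peaks per gene. The lists differ in size, and with the 14369 top peaks of each the range was 0 to 5 in liver, 0 to 2 in MEFs and 0 to 6 in Hep3B.

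**Figure D1:**
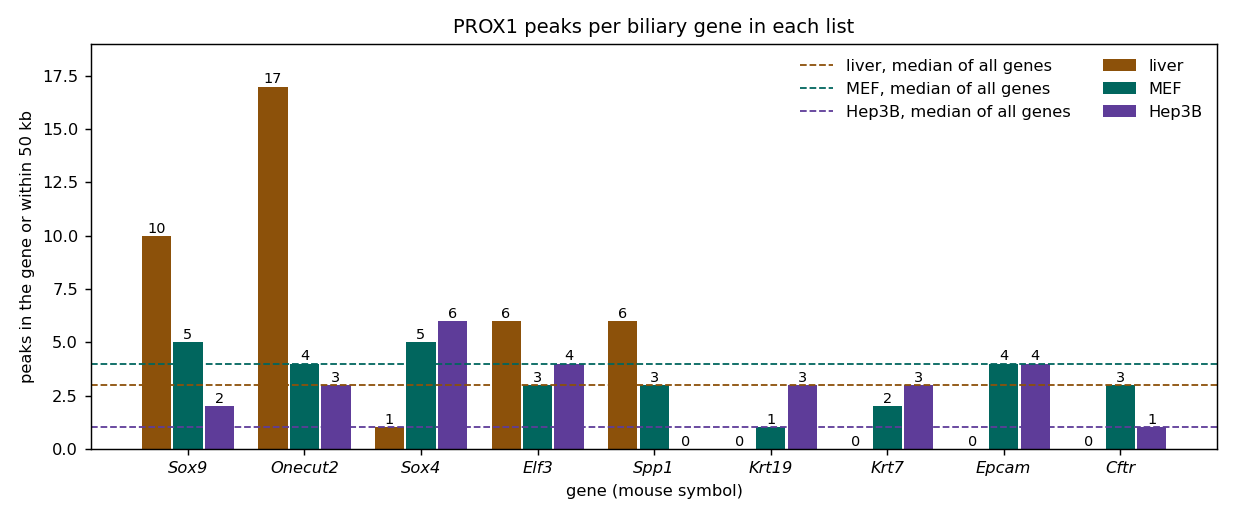
Number of PROX1 peaks in each gene or within 50 kb of it (y axis) for the 9 biliary genes (x axis, mouse symbols), with 1 bar per list and dashed lines at the median over all protein-coding genes. Onecut2 (17) and Sox9 (10) stand highest in liver, while Krt19, Krt7, Epcam and Cftr are at 0 there and between 1 and 4 in the cultures.

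Near does not mean belonging to the gene. Of the 40 liver peaks, 35 had the member's TSS as the nearest protein-coding TSS, against 20 of 30 in MEFs and 21 of 26 in Hep3B. The exceptions fell mostly on a few neighbours. In liver, all 5 were at Elf3, 4 of them in the adjacent gene Rnpep, an aminopeptidase, and 1 nearest to Gpr37l1. In MEFs, 3 of the 4 peaks near Epcam were nearest to another gene, and both peaks near Krt7 lay in an intron of Krt80.

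**Figure D2:**
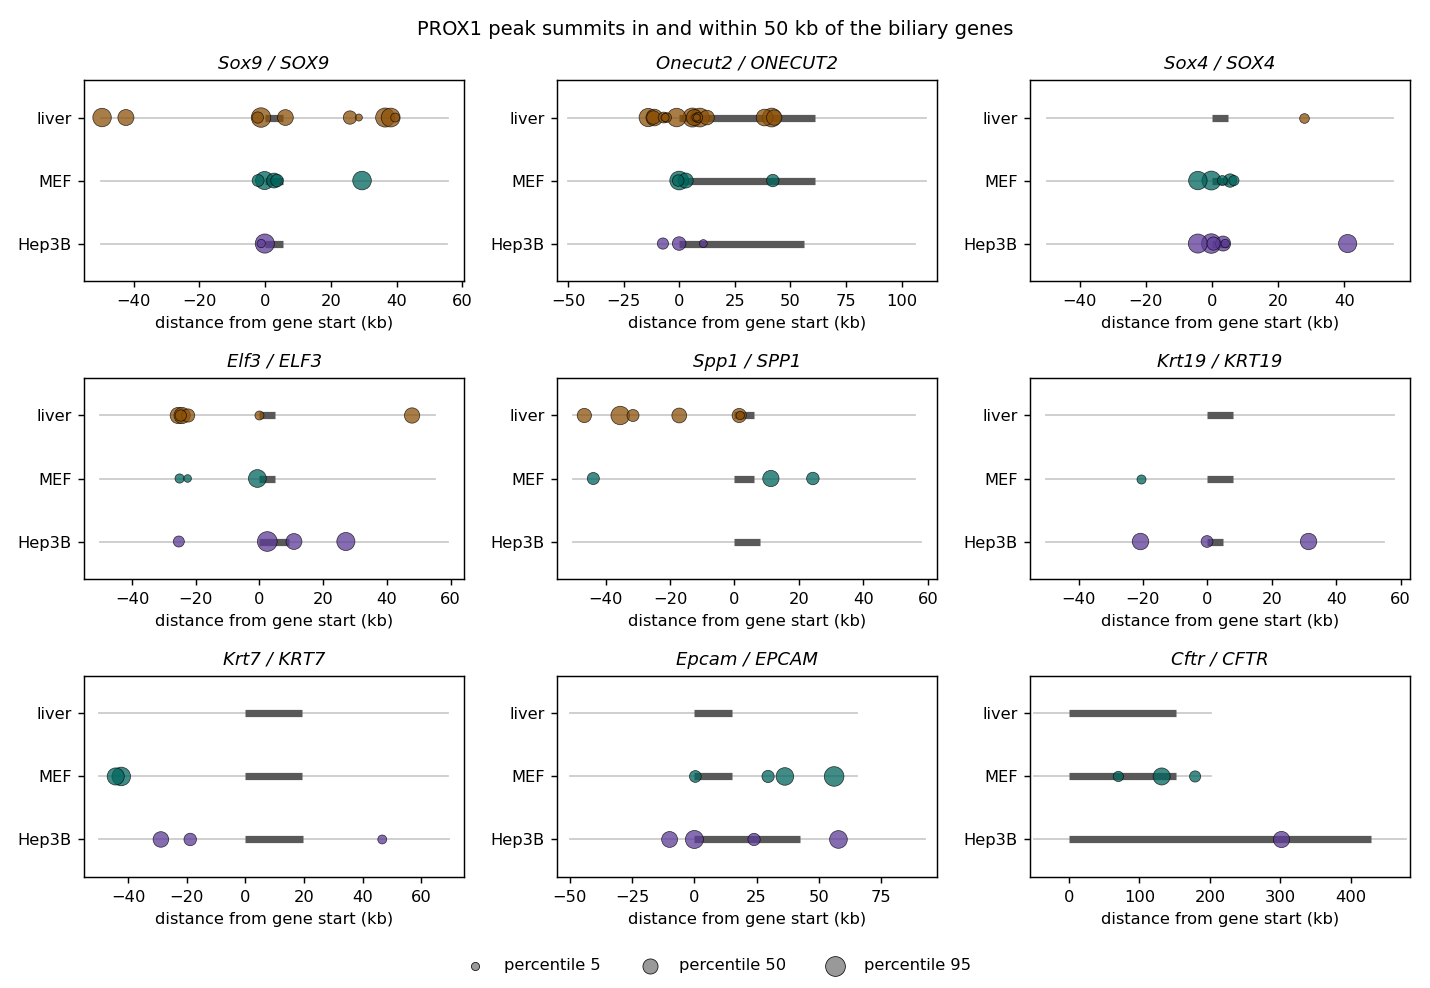
Positions of the peak summits along each gene, as distance from the annotated gene start in kb in the direction of transcription (x axis), with 1 lane for each list. Dark bars mark the gene, pale lines the 50 kb on each side, and larger points stand for higher percentiles. Liver summits at Sox9 reach from 49597 bp upstream to 39565 bp downstream of the start. At Onecut2 most liver summits lie within 14035 bp of the start, with a further group from 38339 to 42684 bp downstream. Most MEF and Hep3B summits at Sox9, Onecut2 and Sox4 lie close to the gene start. Sox9 (MEFs), Onecut2 (MEFs) and SOX4 (Hep3B) each have 1 distal summit. ONECUT2 in Hep3B has further summits 7421 bp upstream and 10769 bp downstream of the start.

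Onecut2, a cut-homeodomain factor of liver and bile duct development, had the most liver peaks of the 9 genes. It had 17, from 14035 bp upstream to 42684 bp downstream of the start, and 10 of them lay inside the gene. At least as many peaks were found at 6.10% of all genes. The strongest, at chr18:64342096-64346379 (mm10), was 4284 bp wide, with its summit 5851 bp into the gene, a −log10 p of 17.3 and a percentile of 86.9. A second broad peak at chr18:64337783-64340105 reached across the gene start (2323 bp wide, summit 1254 bp upstream, −log10 p 16.4, percentile 82.5). The third broad peak lay 9245 bp into the gene (2711 bp wide, percentile 85.1). These were the only 3 liver peaks of at least 2 kb at the 9 genes, a width that 2.98% of the liver list reached. The strongest and the third broad peak were the ends of a run of called peaks with short gaps between them (chr18:64342096-64351156). The 17 are thus called intervals, and the number of separate sites may be smaller.

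In MEFs, Onecut2 had 4 peaks, and 53.7% of genes had at least as many. The strongest of them, at chr18:64339726-64340437, had its summit 98 bp upstream of the start (−log10 p 7.65, percentile 84.5), and a weaker one lay 551 bp upstream (percentile 23.8). ONECUT2 in Hep3B had 3 peaks (30.2% of genes had at least as many), and its promoter peak at chr18:57434599-57435844 (hg38, summit 127 bp upstream) stood at percentile 37.7. The summits at the start of the gene were thus within 29 bp of the same distance in MEFs and Hep3B, while the liver summit lay more than 1 kb further out.

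SOX9, the high-mobility-group factor that defines early biliary cells, held the highest single rank of the members in liver. It had 10 liver peaks (18.9% of genes had at least as many), all nearest to its own TSS and none inside the gene. The strongest, at chr11:112780317-112781853, had a −log10 p of 18.9 and a percentile of 92.3, the highest of the 40 liver peaks. Its summit lay 1236 bp upstream in an intron of the noncoding gene BC006965. Others stood at 36536 bp (percentile 87.9) and 38207 bp (85.7) downstream of the start and at 49597 bp upstream (81.7). The remaining 6 ranged from percentile 0.244 to 58.2.

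In MEFs, Sox9 had 5 peaks, of which 2 lay inside the gene and 1 at its promoter. The promoter peak at chr11:112781072-112783125, 2054 bp wide, had its summit 143 bp upstream (−log10 p 7.24, percentile 78.0). A distal peak 29497 bp downstream of the start ranked slightly higher (7.53, percentile 82.9). In Hep3B, SOX9 had 2 peaks, one at its promoter (−log10 p 8.28, percentile 88.7) and one 1172 bp upstream that was among the weakest of the list (4.90, percentile 5.76). The upstream summit stood within 64 bp of the distance of the strong liver summit, with ranks far apart between liver and Hep3B.

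SOX4, a factor of the same family, went the other way across the lists. Its only liver peak, at chr13:28925787-28926010, was 224 bp wide, lay 27776 bp downstream of the start and had a percentile of 12.8 (−log10 p 9.16). In MEFs the gene had 5 peaks. The promoter peak at chr13:28952024-28954404, 2381 bp wide with its summit 207 bp upstream, stood at percentile 86.3 (−log10 p 7.78). The peak at chr13:28957134-28960107, with its summit 4279 bp upstream, was the widest member peak in MEFs at 2974 bp (7.44, percentile 81.6). With the Sox9 promoter peak, these were the 3 MEF peaks of at least 2 kb at the 9 genes (2.45% of the MEF list).

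In Hep3B, SOX4 had 6 peaks, the most of the 9 genes, and 6.71% of human genes had at least as many. The promoter peak at chr6:21592594-21593865 (summit 230 bp upstream) stood at percentile 92.8 (−log10 p 8.60), and a peak 4284 bp upstream at 87.8 (8.20). A second promoter peak had its summit 447 bp downstream of the start, in the 5′ UTR, at percentile 35.2. The MEF and Hep3B summits thus lay at similar distances upstream of the gene in both species, where the nearest liver summit lay 22982 bp outside the gene.

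**Figure D3:**
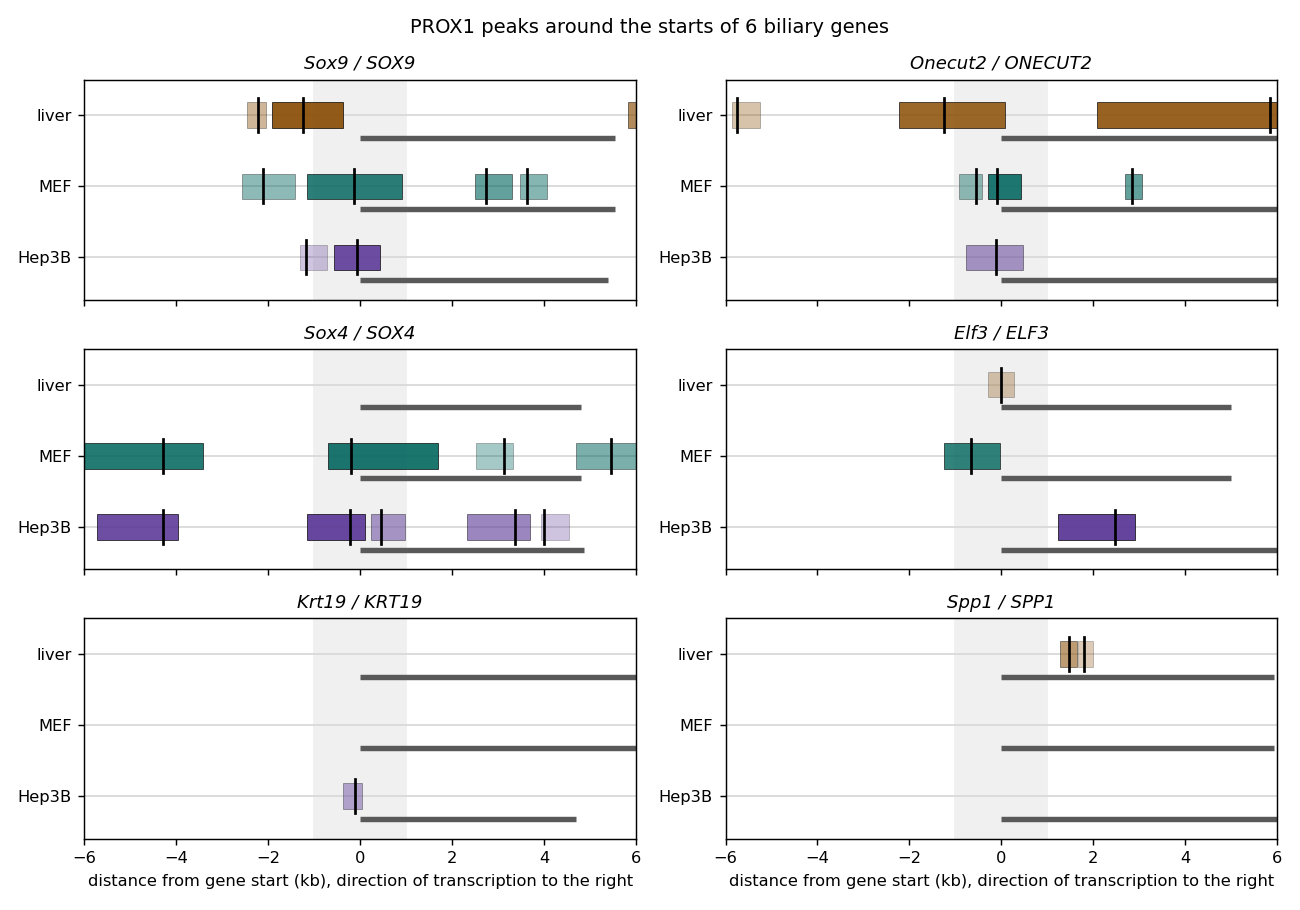
Peaks within 6 kb of the annotated start of 6 biliary genes (x axis, distance in kb in the direction of transcription), 1 lane per list. Coloured boxes are peak intervals, darker for higher percentiles, black ticks are summits, dark bars are the gene, and grey shading marks 1 kb on each side of the start. The MEF and Hep3B boxes of Sox4 and Sox9 overlap in distance, the liver boxes of Sox9 and Onecut2 have their summits just outside the shading, and the Hep3B peak of ELF3 and the liver peaks of Spp1 lie at internal starts.

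ELF3, an ETS factor of epithelia, was the only member with a promoter peak in all 3 lists. In liver the promoter peak at chr1:135258297-135258853 had its summit 13 bp upstream of the start but was weak (−log10 p 8.78, percentile 9.04). The strongest of its 6 liver peaks (13.2, percentile 60.6) lay in the 5′ UTR of Rnpep and not at Elf3. In MEFs the promoter peak at chr1:135258593-135259825 (summit 660 bp upstream) had a percentile of 74.7 (−log10 p 7.05), and the other 2 peaks lay in Rnpep. In Hep3B the peak at chr1:202009177-202010845 held the highest percentile of all 26 member peaks, 94.7 (−log10 p 8.67). Its summit was 181 bp upstream of one protein-coding TSS of ELF3, and 2461 bp inside the gene as counted from its outermost start.

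Spp1 encodes osteopontin, a secreted matrix phosphoprotein of bile duct epithelium and injured liver. It was the only member outside the transcription factors with liver peaks. All 6 were nearest to its own TSS, and 33.4% of genes had at least as many. The strongest, at chr5:104399097-104399914, lay 35460 bp upstream (−log10 p 16.2, percentile 81.7). The promoter peaks had summits 398 bp (chr5:104436386-104436762, 11.5, percentile 42.5) and 719 bp (8.46, percentile 6.12) downstream of a protein-coding TSS, in an intron. That TSS is internal, and from the outermost start of the gene the distances were 1472 and 1793 bp. In MEFs, Spp1 had 3 peaks and no promoter peak, the strongest of which lay 10229 bp downstream of a TSS (6.39, percentile 60.3). One of the others lay in the 5′ UTR of Pkd2. In Hep3B, SPP1 was the only member with no peak, and its nearest summit was 213 kb from the gene, a distance that 11.5% of human genes reached or exceeded.

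The intermediate filament genes Krt19 and Krt7, the classical stains for bile ducts, had no liver peak within 50 kb. The nearest liver summits lay 164 kb from Krt19 and 124 kb from Krt7, and 16.8% and 19.4% of genes were at least as far from a liver summit. In MEFs, Krt19 had 1 peak, 23071 bp upstream of the TSS, at percentile 9.36 (−log10 p 4.49). Krt7 had the pair of Krt80 intron peaks, at percentiles 82.9 and 68.2. In Hep3B, KRT19 had a promoter peak and KRT7 had none (KRT19 at chr17:41528268-41528678, summit 122 bp upstream, −log10 p 5.66, percentile 25.2). Its other Hep3B peaks ranked higher, 20765 bp upstream (6.87, percentile 62.5) and 28531 bp downstream (6.84, percentile 61.7). The latter was nearest to KRT36. KRT7 had 3 distal Hep3B peaks, the strongest 29574 bp upstream and nearest to KRT80 (6.60, percentile 54.0).

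Epcam, an epithelial adhesion protein, had its nearest liver summit 64.2 kb away, just beyond the 50 kb limit, and 27.6% of genes were at least as far. In MEFs, the strongest peak of its range had the highest percentile of the 30 member peaks, 93.7 (−log10 p 8.58), but lay in an intron of a neighbouring gene. The promoter peak at chr17:87636232-87636688, 266 bp upstream of a protein-coding TSS and inside an intron of the longest transcript, stood at percentile 25.2 (5.09). EPCAM in Hep3B had a promoter peak at chr2:47344547-47345638, with the summit 51 bp downstream of the TSS in the 5′ UTR (−log10 p 7.51, percentile 77.1). A further Hep3B peak lay 150 bp upstream of an internal TSS (chr2:47368959-47369824, 5.78, percentile 28.8).

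Cftr, the chloride channel of the apical bile duct membrane, is the longest of the 9 mouse genes, and its nearest liver summit was 423 kb away. At least that distance was seen for 8.29% of genes. Among the 1443 mouse genes at least as long as Cftr, 25.3% had no liver peak in the gene or within 50 kb. In MEFs, Cftr had 3 peaks, 2 of them inside the gene, and the strongest lay 131420 bp from the nearest Cftr TSS in an intron (−log10 p 6.70, percentile 67.5). The closest protein-coding TSS to 2 of the 3 was that of Cttnbp2. In Hep3B, CFTR had 1 peak, intronic, 23206 bp upstream of an internal TSS (6.78, percentile 59.9).

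**Figure D4:**
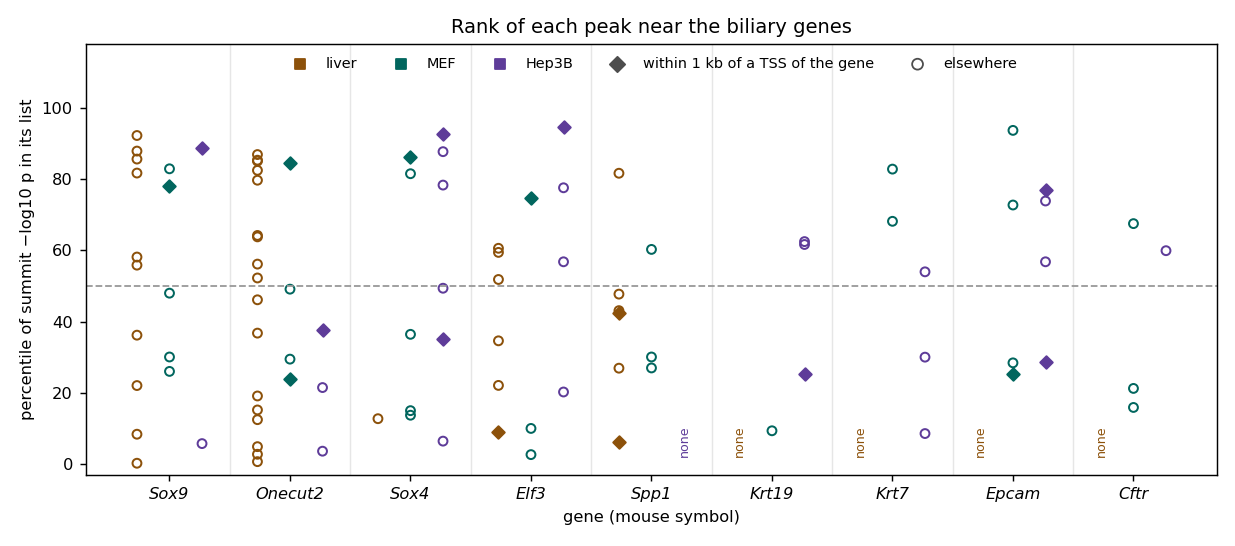
Percentile of the summit −log10 p within its own list (y axis) for every peak at the 9 genes (x axis), coloured by list. Filled diamonds have their summit within 1 kb of a protein-coding TSS of the gene, open circles do not, and the dashed line marks the middle of each list. The filled liver diamonds (Elf3 and Spp1) lie between 6.12 and 42.5, whereas the strongest promoter diamonds of Sox4 stand at 86.3 in MEFs and 92.8 in Hep3B.

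The ranks of the member peaks spread over the whole of each list. The median percentile was 46.9 in liver (interquartile range 18.2 to 68.1), 33.3 in the MEF list (24.1 to 74.2) and 55.4 in the Hep3B list (26.1 to 76.3), where the median of a list is 50 by construction. In liver 10 of 40 peaks lay at or above the 75th percentile and 13 below the 25th. The counts were 7 and 8 of 30 in MEFs and 7 and 6 of 26 in Hep3B. Only 1, 1 and 2 peaks passed the 90th percentile. With so few member peaks, most peaks above that rank lay elsewhere in the genome in any case.

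A promoter peak was called when a summit lay within 1 kb of a protein-coding TSS of the gene. Target genes are defined with 1 kb in the methods of the study and with 2 kb in its results, and both definitions also ask for a PROX1 motif, which the counts here do not. For its liver peaks at cell-type marker genes, the methods also used 2 kb around any TSS. In liver 2 of 9 genes (Spp1 and Elf3) had a promoter peak within 1 kb, beside 26.7% of all protein-coding genes. In MEFs 5 of 9 (Sox9, Onecut2, Sox4, Elf3 and Epcam) had one, beside 55.4%, and in Hep3B 6 of 9 (the same 5 and KRT19), beside 44.4%. Sox9, Onecut2, Sox4 and Epcam had a promoter peak in both cultures and not in liver, a pattern shared by 23.7% of the 15736 genes with the same name in both species. Elf3 was called in all lists (21.9% of genes), Spp1 in liver alone (3.46%), KRT19 in Hep3B alone (2.26%), and Krt7 and Cftr in none (24.4%).

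The liver count of promoters depended on the limit, because the broad upstream peaks of Sox9 and Onecut2 had their summits just outside 1 kb. With 2 kb, or when any base of the peak could lie within 1 kb, the liver count was 4 of 9, beside 30.4% and 28.3% of all genes. Counted from the outermost start of each gene, it was 1 (Elf3), beside 23.5%. With an equal number of 14369 top peaks from each list, no liver promoter peak was left, and the liver peaks fell to 10, all at Sox9, Onecut2 and Spp1.

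Positions in liver and MEFs, which share a genome build, overlapped at 3 of the 9 genes. Of the 40 liver peaks, 9 overlapped a MEF peak by at least 1 bp (22.5%, 95% Wilson interval 12.3 to 37.5, for counting error only), beside 18.9% of the whole liver list. Of the 30 MEF peaks, 9 overlapped a liver peak (30.0%, interval 16.7 to 47.9), beside 21.4% of the MEF list. Both intervals treat the peaks as independent. The overlapping peaks lay at 3 genes and some shared a partner, which the intervals do not cover. The 11 overlapping pairs were at Sox9 (3), Onecut2 (4) and Elf3 (4). None had summits within 100 bp, which 6.56% of the liver list and 8.12% of the MEF list had.

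At Sox9 the nearest pair of summits, 2218 bp and 2117 bp upstream, was 101 bp apart, in weak peaks of both lists (percentiles 22.1 in liver and 26.0 in MEFs). The strong liver peak (percentile 92.3) and the MEF promoter peak (78.0) shared 782 bp, with summits 1093 bp apart. At Onecut2 the broad liver peak across the start covered both MEF promoter peaks, in part or whole, with summits 1156 and 703 bp away. At Elf3 the promoter peaks of the 2 lists overlapped by 261 bp with summits 647 bp apart, and the other 3 pairs lay in Rnpep.

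Across species, 9 pairs of mouse and human summits lay at distances from the gene start that differed by at most 250 bp. For each pair, 300 bases around the summits were aligned and the identical bases were counted, beside the same alignment of the mouse window with the human windows of the other genes. The Sox4 promoter windows (207 and 230 bp upstream) were identical at 81.0% of 300 bases, with an unbroken run of 137 shared bases, where other genes gave 44.3% to 53.3%. The windows at the Sox9 upstream site in liver and Hep3B were identical at 59.3% (other genes at most 54.0%), and the Onecut2 promoter windows at 61.7% (at most 54.0%).

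Likeness of distance did not always come with likeness of sequence. The second Sox4 pair, 4279 and 4284 bp upstream, differed by 5 bp in distance and had 54.0% identical bases, equal to the highest value from other genes. The Krt19 pair, 20526 and 20765 bp upstream of the gene start, had 48.0%, within the range from other genes (39.0% to 53.7%). The pair at the 3′ end of Sox4, 3123 and 3357 bp downstream, had 70.0% (other genes at most 49.7%). The Elf3 pairs, near the start of the neighbour Rnpep, had 66.3% with the liver summit 25475 bp upstream and 59.3% with the MEF summit 25074 bp upstream, where other genes gave at most 57.0% and 56.7%. Windows of the same promoters away from peaks were not aligned, so these values describe the sites and not a property of bound DNA.

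Sequence words in the summit windows were counted beside those of the whole lists. None of the 40, 30 and 26 windows of 150 bases matched a 12-base PROX1 consensus, written from general knowledge, with up to 2 mismatches. In the whole lists 3.20%, 1.97% and 2.16% of windows did. Anywhere in the peak, the consensus matched 8 of 40 liver peaks (20.0%, beside 13.3% of the list), 4 of 30 MEF peaks (13.3%, beside 14.5%) and 3 of 26 Hep3B peaks (11.5%, beside 12.6%). The liver matches were in 4 peaks at Onecut2, 3 at Sox9, the strongest included, and 1 at Spp1. The MEF matches were at Sox4 (2), Sox9 and Spp1, and those in Hep3B at EPCAM, CFTR and SOX4. A promoter peak with a match stood at 0 of the 9 genes in liver within 1 kb (5.54% of all genes) and at 2, Sox9 and Onecut2, within 2 kb (7.35%). With 3 mismatches, 7, 6 and 4 member summit windows matched (17.5%, 20.0% and 15.4%), beside 26.7%, 21.4% and 22.4% of the lists. AGGTCA, on either strand, stood in 8 of 40 liver windows (20.0%, beside 21.7% of the liver list), 3 of 30 MEF windows (10.0%, beside 8.64%) and 2 of 26 Hep3B windows (7.69%, beside 7.43%).

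Of the liver windows with AGGTCA, 5 were at Onecut2, 2 at Sox9 and 1 at Spp1. The ETS word AGGAAG stood in 10 of 40 liver windows (beside 16.7% of the list), and the other ETS word, CCGGAAG, in 0 (beside 1.38%). The NF-Y word CCAATC stood in 5 of 30 MEF windows (16.7%, beside 7.88%) and in none of the 40 in liver (beside 5.57%). The other NF-Y word, CCAATG, went the opposite way. It stood in 2 of 30 MEF windows (6.67%, beside 8.47%) and 4 of 40 liver windows (10.0%, beside 6.82%). The CTCF core word CCACNAG stood in 5 of 30 MEF windows (16.7%, beside 16.2%) and in none of the 26 in Hep3B (beside 10.8%). The counts are small, and a match does not show that a factor binds there. The GC content of the windows had a median of 47.3% in liver, 51.3% in MEFs and 59.7% in Hep3B, beside 48.0%, 53.3% and 62.0% for the lists.

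Beside the 9 members, 24 other genes of biliary epithelium were counted in the same way. In liver 23 of the 24 had a peak in the gene or within 50 kb (95.8%, beside 69.1% of all genes). A liver promoter peak stood at 9 (37.5%, beside 26.7%). In MEFs the counts were 22 (91.7%, beside 81.2%) and 9 (37.5%, beside 55.4%). In Hep3B they were 20 (83.3%, beside 71.8%) and 10 (41.7%, beside 44.4%). Many of the peaks within 50 kb were nearest to another gene. In liver, 92 of 188 counted peaks were nearest to the listed gene's own TSS, and 16 of the 24 genes had such a peak. These values were 53 of 146 peaks and 19 genes in MEFs, and 37 of 78 peaks and 14 genes in Hep3B. Krt18, Slc4a2 and Onecut1 had a promoter peak in every list. Krt18 encodes the partner of Krt8 in simple epithelia, Slc4a2 the bicarbonate exchanger of bile ducts, and Onecut1 the paralog of Onecut2. Promoters with a peak in liver alone included those of Krt23, Slc10a2, Ehf and Pkhd1.

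The 9 core hepatocyte transcription factors gave the sharpest contrast in liver. All 9 had a liver peak (beside 69.1% of all genes) and 8 a promoter peak (beside 26.7%). Their median was 20 liver peaks per gene, beside 1 for the biliary members, 5.5 for the 24 other biliary genes and 3 over all genes. In MEFs the hepatocyte factors had 9 and 5 genes and a median of 4 peaks, beside 9 and 5 genes and a median of 3 for the members. In Hep3B they had 8 and 6 genes and a median of 6, beside 8 and 6 and a median of 3. The shares over all genes were 81.2% and 55.4% in MEFs and 71.8% and 44.4% in Hep3B. Cebpa, Foxa3, Foxa2 and Foxa1 had a promoter peak in all lists, and promoters with a peak in liver alone included those of Hnf4a and Nr1h4. Hnf4a, the central factor of the hepatocyte program, had 37 liver peaks, the strongest at percentile 99.1. The hepatocyte factors ranged from 7 liver peaks (Foxa3) to 37, and of the members Sox9 (10) and Onecut2 (17) fell in that range.

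Of 9 genes of the Notch pathway, which steers hepatoblasts toward bile duct, 7 had a liver peak and 3 a promoter peak. Over all genes, the liver shares were 69.1% and 26.7%. The Notch counts were 9 and 8 in MEFs (beside 81.2% and 55.4% of genes) and 7 and 4 in Hep3B (beside 71.8% and 44.4%). Hes1, a repressor induced by Notch, and Rbpj, the DNA-binding partner of the Notch receptors, had a promoter peak in all lists. Hes1 had 14 liver peaks, the strongest at percentile 83.4. No Notch gene had a promoter peak in liver alone.

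**Figure D5:**
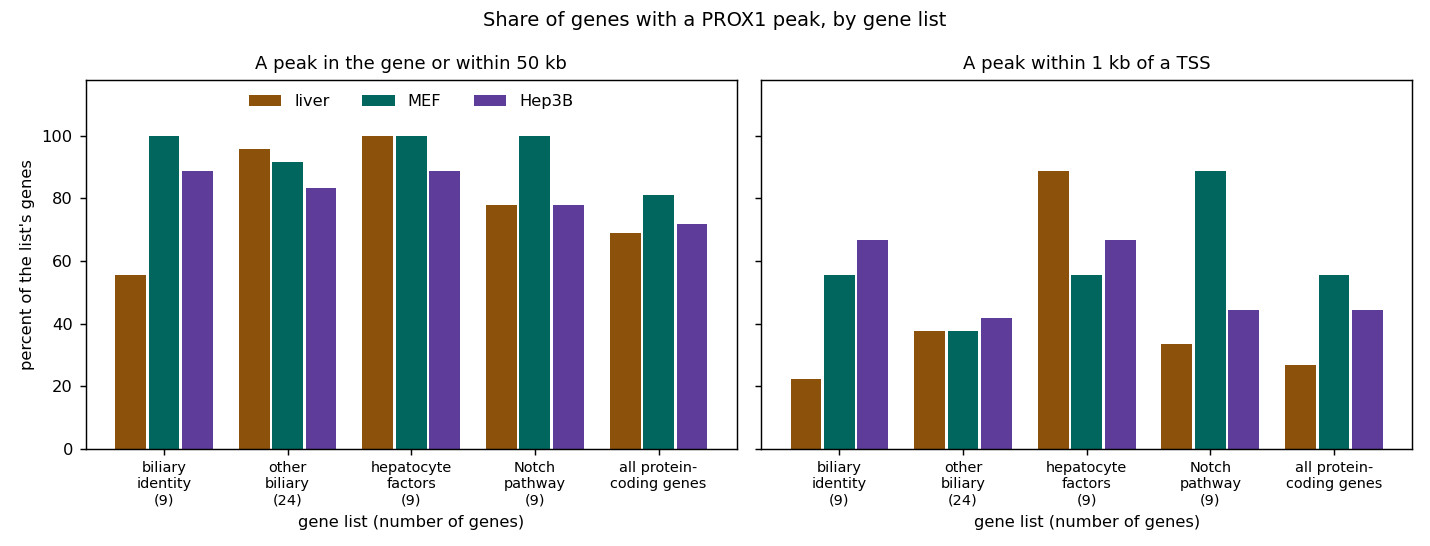
Percent of genes (y axis) with a peak in the gene or within 50 kb (left) and with a promoter peak (right), for 4 gene lists and all protein-coding genes (x axis), 1 bar per peak list. In liver 8 of 9 hepatocyte factors had a promoter peak and 2 of 9 biliary identity genes did, while in MEFs (5 and 5) and Hep3B (6 and 6) the counts of these 2 lists were equal.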

How the data were processed

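CUT&RUN peaks of 22 samples in 6 groups were deposited as 3 lists, grouped by the sample labels. The authors trimmed reads with Trim Galore 0.6.6, aligned them with Bowtie 2 2.4.2 to mm10 or hg38 (nf-core/cutandrun), and called consensus peaks over replicates with Genrich 0.6.1 at q below 0.3. The command they give names no control library, and whether the lists were called against IgG could not be settled. Per peak, the deposited columns hold a score (mean area per base, capped, unused), a signal (area under the significance curve), the −log10 p and −log10 q of the summit, and the summit offset. None is normalized between lists by the authors.

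Summits were placed with GENCODE M21 (mouse) and GENCODE 44 (human). Ranks used −log10 p. The words AGGTCA (nuclear receptors), CAAAGTCC (HNF4), GTTAAT (HNF1), ATCGAT (ONECUT), TGTTTAC and TGTTTGC (FOXA), TTGCGCAA and TTGCNNCAA (C/EBP), ACAAAG and ACAATG (SOX), CCGGAAG and AGGAAG (ETS), GGAATG (TEAD), CCACNAG (CTCF), CCAATC and CCAATG (NF-Y), TGACTCA (AP-1) and GGGCGG (SP/KLF) were searched on both strands in 150 bases around the summit, as was the consensus. No word contains another. Shares of peaks carry 95% Wilson intervals, which treat the peaks as independent. Mouse and human windows were aligned globally with Biopython 1.88. Scripts were tested on simulated peaks.

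The members and all gene lists were chosen with earlier results of these data known. By rule, the text names all 9 members with their strongest and promoter peaks, up to 5 genes of each other list with a promoter peak in all lists, and those in liver alone. Some genes and sites that the rule covers are not reported here. Other members' peaks and the neighbouring genes that hold them were named after their values were seen. 2 alternatives for promoters (the outermost start, any base of the peak) and 1 for the consensus (the whole peak) were added after seeing the data. The grouping of the members by role was not planned.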

Additional observations from a re-analysis of the deposited data

How the results depend on the processing

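No paired analysis was possible because each list pools the replicates of a group, and leaving out a replicate was not run for the same reason. With 100 kb on each side, the members had 73 peaks in liver and 52 in MEFs. Keeping areas of at least 500, the floor of the liver list, left 8 member peaks in MEFs and 12 in Hep3B, and lowered the share of liver peaks overlapping a MEF peak to 7.50%. With 14369 top peaks per list, liver had 10 peaks at 3 genes and 0 promoter genes, and MEFs 11 peaks. The promoter genes in liver were 4 with 2 kb, 4 when any base of the peak counted and 1 from outermost starts alone. Requiring summits within 100 bp left 0% overlap in both directions. With 3 mismatches the consensus matched 7 windows in liver, 6 in MEFs and 4 in Hep3B, and in the whole peak with 2 mismatches it matched 8, 4 and 3. AGGTCA stood in 3.33% of MEF windows with 50 bases and 26.7% with 150 bases on each side of the summit, and in 0% of Hep3B windows with 50 bases. The cause of these changes was not tested beyond what each setting removes or adds. Of the alternative values of these counts, medians and shares, 71 stayed within 1.5 times the main count or within its interval and 23 did not. Of the peak counts of single genes, 114 stayed within 1.5 times and 48 did not. With 25 kb on each side, the liver peaks of Sox9 went from 10 to 5 and those of Spp1 from 6 to 3, and Krt7 went from 2 MEF peaks to 0. With 100 kb, Epcam had 2 liver peaks, while Krt19, Krt7 and Cftr stayed at 0. Peak numbers without depth or replicates limit every value.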
